A study of Rattus norvegicus with 6 samples.

Results

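The genes described here are markers of disease-associated microglia, a state that microglia take on around amyloid plaques, in demyelinated tissue and with age. They were chosen by name as Trem2, Tyrobp, Apoe, Gpnmb, Spp1, Cst7, Lgals3, Clec7a, Ch25hl and Timp2. Of these 10 names, 8 had a row among the 23139 genes of the count tables, and all 8 were abundant enough to be tested with the 11977 genes left after removal of low counts. Ch25hl and Timp2 were not analysed here. Bulk mRNA of primary microglia from cortices of Wistar rats at postnatal day 1 was compared in 2 groups of 3 biological replicates. The microglia were shaken off mixed glial cultures and purified with CD11b/c microbeads. Cells of the LPS group received lipopolysaccharide (LPS), a bacterial cell wall molecule sensed by TLR4, at 100 ng/mL together with the solvent DMSO. Cells of the LPS/siponimod group received the same dose of LPS and 50 µM siponimod, a modulator of sphingosine 1-phosphate receptors. Since both groups received LPS, each value shows LPS/siponimod against LPS and not against resting cells. Cultures of newborn cells in serum-containing medium lack plaques and demyelination, the settings in which this state was defined. Depth was between 38080379 and 46643859 counts per library, and values are given in CPM, read counts scaled to the same library size after edgeR's TMM normalization.

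In disease-associated microglia, the surface receptor TREM2 binds lipids and lipoproteins, among them apolipoprotein E (Apoe). TREM2 has no signalling motif of its own and signals through the adaptor DAP12, encoded by Tyrobp, which recruits the kinase SYK. Dectin-1, encoded by Clec7a, recognises fungal glucans and signals through SYK by a motif in its own tail. Full entry into the state is known to need TREM2, and cells that enter it lower homeostatic genes such as P2ry12 and Cx3cr1 and raise genes of lysosomes, lipid handling and secreted factors.

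Before the markers are described, the composition of the libraries is given. All 12 genes of a list of microglia and macrophage markers were counted in every library. Csf1r, the most abundant by its mean over all 6 libraries, had 3051, 2340 and 932 CPM in LPS replicates 1, 2 and 3 and 636, 1309 and 491 CPM in LPS/siponimod replicates 1, 2 and 3. Itgam was above it in LPS replicate 3 and LPS/siponimod replicate 3 (1048 and 546 CPM) and Cd68 in LPS/siponimod replicates 1 and 3 (1346 and 831 CPM). The summed level of this list was 10820, 8686 and 5690 CPM in the LPS libraries and 4187, 5387 and 2956 CPM under LPS/siponimod, so that it was lower in each LPS/siponimod library than in each LPS library. Aif1, Itgam and Cx3cr1 fell among the 12, while 11.7% of all genes tested were called lower and 25.3% in either direction. With single libraries left out, between 0 and 7 genes of the list and between 1.44% and 14.5% of all genes were called lower. The count of the list was 0 without LPS replicate 2, LPS/siponimod replicate 1 or LPS/siponimod replicate 3 and 1 without LPS replicate 1. With the replicate number as a block 8 genes of the list fell and 1 rose. In that fit 16.4% of all genes were called lower and 17.7% higher. In bulk RNA fewer cells of a type and less RNA per cell cannot be told apart. Cx3cr1 was near the floor in LPS/siponimod replicate 1, with 3 counts. The libraries numbered 3 stood apart, as they held transcripts of other neural cells. Olig1, a gene of the oligodendrocyte lineage, had 1, 5 and 515 counts under LPS and 2, 3 and 17 under LPS/siponimod, and the neuronal gene Map2 had 0, 3 and 162 against 1, 1 and 115. Gfap, the defining marker of astrocytes, had 88 counts in LPS replicate 3 and at most 2 in every other library.

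Summed over the lists, astrocyte markers reached 48.4, 24.2 and 25.8 CPM in the LPS libraries and 29.3, 28.9 and 59.8 CPM under LPS/siponimod, most of it Slc1a3. Oligodendrocyte-lineage markers reached 5.34, 5.37 and 36.04 CPM against 11.4, 10.3 and 22.6 CPM, with Mbp as the most abundant gene by its mean over all libraries, and Mog was at 0 in all LPS libraries. Neuronal markers reached 9.45, 6.41 and 13.3 CPM against 4.74, 8.27 and 15.8 CPM, with Tubb3 as the most abundant gene by its mean over all libraries, although Syn1 was above it in LPS replicates 1 and 2 (7.75 and 5.37 CPM against 1.65 and 0.91 CPM). Fibroblast and pericyte markers, gave between 3.98 and 11.9 CPM in the 6 libraries. Dcn, the most abundant of them by its mean over all libraries, had 3, 0 and 4 counts against 456, 49 and 178 and rose (quasi-likelihood adjusted p = 0.0155). Endothelial markers gave 154, 201 and 81.5 CPM against 36.01, 77.8 and 24.2 CPM. Cdh5 was the largest part, except in LPS replicate 2, where Pecam1 had 104 CPM and Cdh5 97.1 CPM, and Kdr was at 0 throughout. Mbp rose (log2 fold change 1.74, quasi-likelihood adjusted p = 0.0172), and the astrocytic gene Aldoc fell (-1.12, 0.0401). These calls also rested on single libraries. That of Mbp was lost without LPS replicate 2, LPS/siponimod replicate 1 or LPS/siponimod replicate 3, that of Dcn without LPS replicate 1, LPS replicate 2, LPS/siponimod replicate 1 or both libraries numbered 3 and with limma-voom, and that of Aldoc without any single library other than LPS replicate 3, without both libraries numbered 3 and without a filter. The part of these other cells in the changes described next was not tested, and each marker is given also without both libraries numbered 3.

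**Figure D1:**
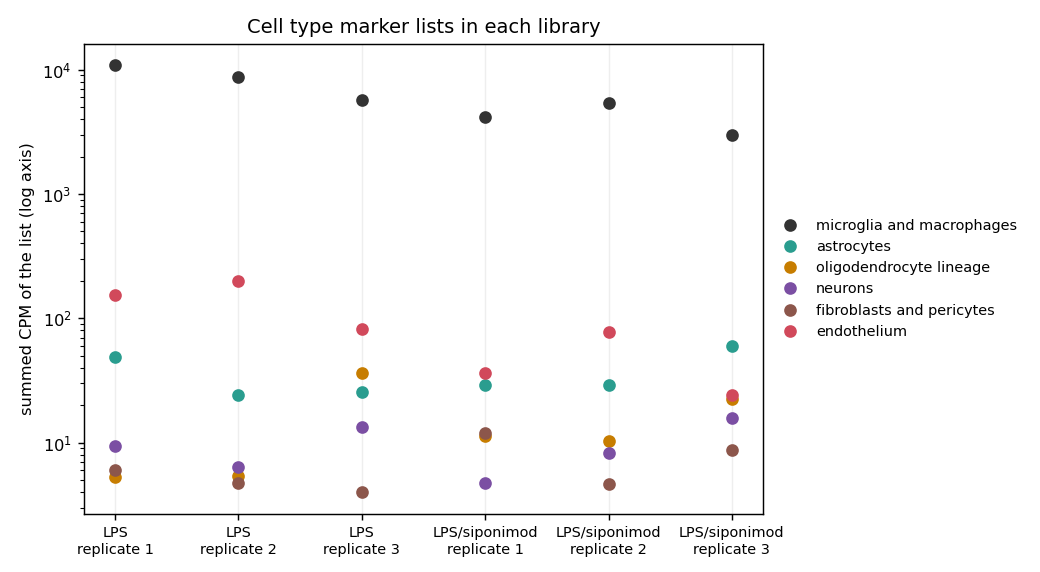
Summed CPM (log axis) of the cell type marker lists in each of the 6 libraries, with 1 point per list and library. The microglial list lies between 2956 and 10820 CPM, and the oligodendrocyte-lineage list is highest in LPS replicate 3 (36.04 CPM) and LPS/siponimod replicate 3 (22.6 CPM).

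The markers ranged from clearly higher to somewhat lower values. Spp1 and Clec7a rose with LPS/siponimod, 12.4-fold and 7.41-fold. Gpnmb and Lgals3 were also higher in each LPS/siponimod library than in each LPS library, by a fitted 3.64-fold and 2.90-fold, but did not pass the adjusted p of the comparison without pairing. With the replicate number as a block both passed, which made 4 of 8 markers higher, while 17.7% of all genes were called higher in that fit. Trem2, Tyrobp, Apoe and Cst7 overlapped between the groups. Differentially expressed genes (DEGs) had to reach 1.5-fold and an adjusted p no higher than 0.05 in edgeR's quasi-likelihood test, and 2 of the 8 markers were upregulated DEGs, whereas 13.6% of all genes tested were. No marker was a downregulated DEG by this test, by DESeq2 or by limma-voom, or lower at an unadjusted p under 0.05 by the quasi-likelihood test, and 11.7% of all genes were downregulated DEGs. In either direction 25.3% of all genes were DEGs. The CPM of the groups did not overlap for 4 of the 8 markers, all 4 higher, as for 49.3% of all genes tested (25.3% higher and 24% lower). The median log2 fold change of the 8 markers was 1.19, and that of all genes was -0.02. It lies between Trem2 and Lgals3, which were not DEGs, and was 1.99 without LPS replicate 1 and 0.80 without LPS replicate 3.

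**Figure D2:**
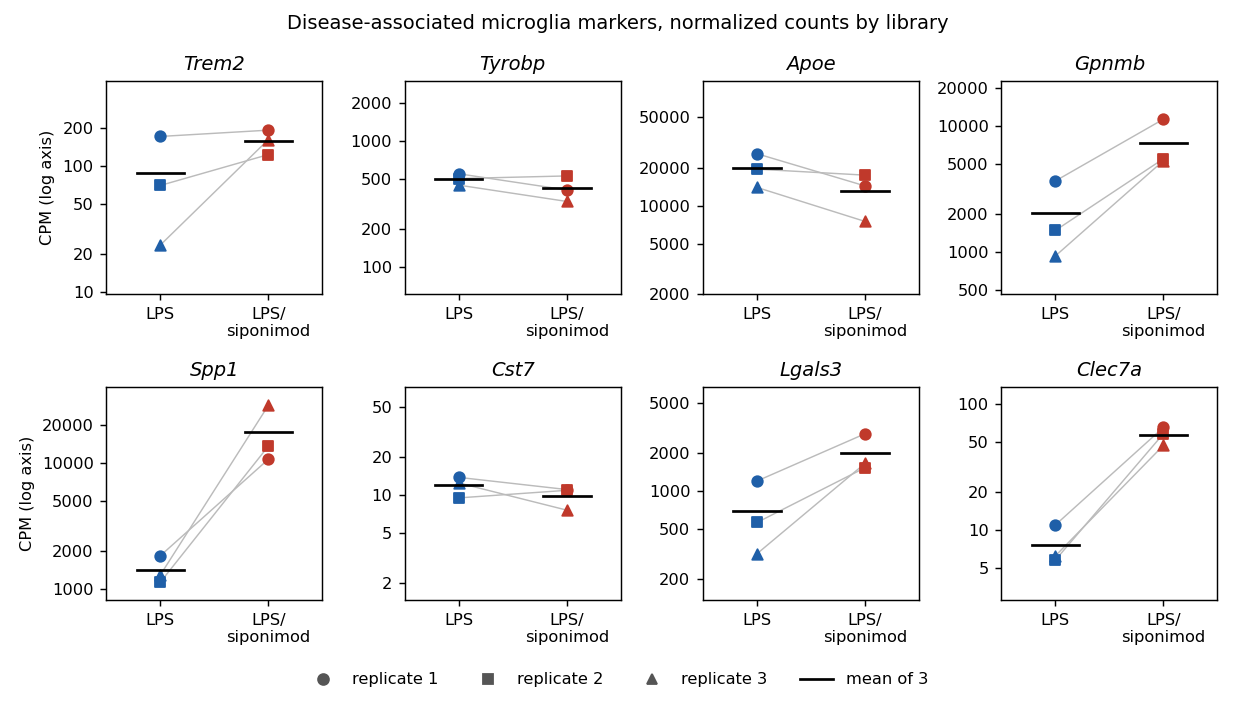
Normalized counts (CPM, log axis of the same span in each panel) of the 8 markers in the LPS and LPS/siponimod libraries. Symbols mark the replicate number, grey lines join libraries with the same number, and black bars are means of n = 3. Spp1, Clec7a, Gpnmb and Lgals3 are higher in all 3 LPS/siponimod libraries than in any LPS library, while the groups overlap for the others.

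The sequence before the start of the 3 markers with the largest fold changes is shown for the genomic context of these genes. RefSeq promoters of assembly GRCr8, another build than the one the reads were mapped to, were matched for 6 of the 8 markers. Lgals3 and Tyrobp had no entry. The 250 bases before the annotated start are printed 5′ to 3′ on the strand of the gene, for Spp1 chr14:5619805-5620054 (minus strand), for Clec7a chr4:164599828-164600077 (minus strand) and for Gpnmb chr4:79340878-79341127 (plus strand). Capitals mark matches, on either strand, to the M-box TCATGTG and the E-box TCACGTG bound by MiT/TFE factors, to the AP-1 motif TGANTCA, to the RUNX motif TGNGGTT or to the ETS motif GAGGAAG.
Spp1: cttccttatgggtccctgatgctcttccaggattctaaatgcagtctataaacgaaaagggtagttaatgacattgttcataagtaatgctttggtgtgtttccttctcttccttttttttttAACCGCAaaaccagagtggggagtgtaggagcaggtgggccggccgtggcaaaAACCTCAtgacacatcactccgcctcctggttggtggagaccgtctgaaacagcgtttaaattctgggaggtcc
Clec7a: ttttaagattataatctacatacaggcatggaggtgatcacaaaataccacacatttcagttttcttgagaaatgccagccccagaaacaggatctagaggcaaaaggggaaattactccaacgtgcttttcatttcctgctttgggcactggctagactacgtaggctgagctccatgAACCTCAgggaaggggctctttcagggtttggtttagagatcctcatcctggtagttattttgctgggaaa
Gpnmb: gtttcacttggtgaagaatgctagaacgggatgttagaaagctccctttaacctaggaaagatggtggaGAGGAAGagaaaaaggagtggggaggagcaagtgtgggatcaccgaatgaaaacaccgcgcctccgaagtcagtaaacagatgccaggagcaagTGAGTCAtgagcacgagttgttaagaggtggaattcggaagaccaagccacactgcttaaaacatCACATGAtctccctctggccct
In Gpnmb, a minus-strand match to the M-box (CACATGA) lay 22 to 16 bases before the start, an AP-1 match (TGAGTCA) 87 to 81 bases and an ETS match 181 to 175 bases before it. Of 33465 windows of the same length, 3.07% held the M-box, 2.79% the E-box, 6.34% the AP-1 motif, 12.9% the RUNX motif and 10.2% the ETS motif. Spp1 held 2 matches to the RUNX motif, AACCGCA and AACCTCA, and Clec7a held AACCTCA. Of the other markers, Apoe held the M-box in 1 of its annotated windows, 41 to 35 bases before the start, and Trem2 an ETS match. These matches describe letters and show no binding.

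Clec7a was the receptor among the markers that rose. It had 407, 223 and 232 counts under LPS and 3033, 2597 and 1929 under LPS/siponimod, or 10.98, 5.79 and 6.24 CPM against 65.3, 58.2 and 47.05 CPM. The lowest LPS/siponimod library was thus far above the highest LPS library. The mean rose from 7.67 ± 2.88 to 56.8 ± 9.19 CPM (SD, n = 3 each), a log2 fold change of 2.89 (standard error, SE, 0.30, adjusted p = 0.00568, edgeR quasi-likelihood test). Differences within the same-numbered pairs were similar to each other at 2.57, 3.32 and 2.90 on the log2 scale. Without both libraries numbered 3 the log2 fold change was 2.88 (quasi-likelihood adjusted p = 0.0295), and over all 14 alternatives the adjusted p lay between 7.00e-18 and 0.0384.

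Trem2 and Tyrobp, the receptor and its adaptor, were not DEGs. Trem2 had 173, 70.6 and 23.8 CPM in LPS replicates 1, 2 and 3 and 194, 124 and 163 CPM in the LPS/siponimod libraries. The LPS libraries were spread widely, as replicate 1 reached the level of the LPS/siponimod libraries and replicate 3 lay far below it. The log2 fold change was 0.85 (95% interval -0.73 to 2.43, adjusted p = 0.355, edgeR quasi-likelihood test). Within pairs Trem2 was higher by 0.17, 0.81 and 2.78 on the log2 scale, and without both libraries numbered 3 the log2 fold change was 0.39. Without LPS replicate 1 it was 1.77 (quasi-likelihood adjusted p = 0.0798, between 0.0798 and 0.603 over all alternatives). In LPS replicate 3, where Trem2 was lowest, Csf1r was also at its lowest among the LPS libraries and transcripts of other neural cells were present, and their part in this value was not tested.

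Tyrobp varied little between libraries. Its levels were 551, 505 and 448 CPM in the LPS libraries and 410, 529 and 332 CPM under LPS/siponimod, which overlapped. The log2 fold change was -0.24 with a 95% interval from -0.75 to 0.26 (adjusted p = 0.411, edgeR quasi-likelihood test). The pairs differed by -0.43, 0.07 and -0.43, and without both libraries numbered 3 the log2 fold change was -0.17.

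Among the secreted factors, Spp1 changed most. Spp1 encodes osteopontin, a phosphoprotein that binds integrins and CD44. It had 68108, 43678 and 48067 counts under LPS and 497757, 607511 and 1174984 under LPS/siponimod. This was 0.173, 0.114 and 0.126% of all counts of the LPS libraries and 1.07, 1.402 and 3.02% of those of the LPS/siponimod libraries. LPS/siponimod replicate 3 was the highest library, and the LPS libraries lay close together. The mean rose from 1422 ± 369 to 17661 ± 9633 CPM (SD, n = 3 each), a log2 fold change of 3.63 (SE 0.48, adjusted p = 0.00769, edgeR quasi-likelihood test). Within pairs the difference was 2.54, 3.59 and 4.47 on the log2 scale. Without both libraries numbered 3 the log2 fold change was 3.04 (quasi-likelihood adjusted p = 0.0339), and over all 14 alternatives the adjusted p lay between 1.34e-15 and 0.0453.

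Lgals3 encodes galectin-3, a lectin that is secreted and also gathers on damaged lysosomes. It had 1204, 565 and 319 CPM in the LPS libraries and 2855, 1536 and 1664 CPM under LPS/siponimod. The groups did not overlap, although LPS replicate 1 came within a small distance of LPS/siponimod replicate 2. The log2 fold change was 1.54 (SE 0.53, adjusted p = 0.0735, edgeR quasi-likelihood test). All pairs went up, by 1.25, 1.44 and 2.38 on the log2 scale. With the replicate number as a block Lgals3 was a DEG (log2 fold change 1.69, SE 0.29, quasi-likelihood adjusted p = 0.0131), as it was without LPS replicate 1 (2.202, adjusted p = 0.0391). Without both libraries numbered 3 the log2 fold change was 1.32 (quasi-likelihood adjusted p = 0.131), and over all alternatives the adjusted p lay between 0.0095 and 0.232.

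Apoe, the lipoprotein component that TREM2 binds, is a major transcript of these cultures. It was counted at 954260, 748656 and 517154 reads under LPS and 664873, 777654 and 306614 under LPS/siponimod, or 2.42, 1.96 and 1.36% of all counts against 1.43, 1.79 and 0.789%. LPS/siponimod replicate 3, which was the highest library for Spp1, was the lowest for Apoe. Its mean was 19702 ± 5921 CPM in the LPS libraries and 13070 ± 5087 CPM under LPS/siponimod (SD, n = 3 each), and the groups overlapped. The log2 fold change was -0.59 (95% interval -1.59 to 0.41, adjusted p = 0.309, edgeR quasi-likelihood test), with -0.85, -0.16 and -0.90 within pairs. Astrocytes also make Apoe. Of their markers, Slc1a3 had between 574 and 2285 counts per library and Aldoc between 78 and 218, while Gfap had at most 2 in all libraries but LPS replicate 3, and the part of astrocytes in the level of Apoe was not tested. Without both libraries numbered 3 the log2 fold change was -0.51.

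Of the markers tied to lysosomes, Gpnmb encodes a glycoprotein of lysosomes and the cell surface whose transcription is known to be driven by MiT/TFE factors. It had 3670, 1486 and 933 CPM in the LPS libraries and 11340, 5504 and 5317 CPM under LPS/siponimod, where replicate 1 was the highest library of its group in both conditions. The mean was 2030 ± 1447 CPM in the LPS libraries and 7387 ± 3424 CPM under LPS/siponimod (SD, n = 3 each). The log2 fold change was 1.86 (SE 0.60, adjusted p = 0.061, edgeR quasi-likelihood test), and the pairs differed by 1.63, 1.89 and 2.51 on the log2 scale. With the replicate number as a block Gpnmb was a DEG (log2 fold change 2.01, SE 0.27, quasi-likelihood adjusted p = 0.00853), and without LPS replicate 1 the log2 fold change was 2.62 (adjusted p = 0.0362). Without both libraries numbered 3 it was 1.71 (quasi-likelihood adjusted p = 0.121), and over all alternatives the adjusted p lay between 0.00345 and 0.20.

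Cst7 encodes cystatin F, an inhibitor of cysteine cathepsins in endosomes and lysosomes. It had 13.7, 9.42 and 12.4 CPM in the LPS libraries and 10.98, 10.8 and 7.54 CPM in the LPS/siponimod libraries. The groups overlapped, and the log2 fold change was -0.28 (95% interval -0.82 to 0.27, adjusted p = 0.387, edgeR quasi-likelihood test). Pairs differed by -0.32, 0.20 and -0.71, and without both libraries numbered 3 the log2 fold change was -0.08.

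**Figure D3:**
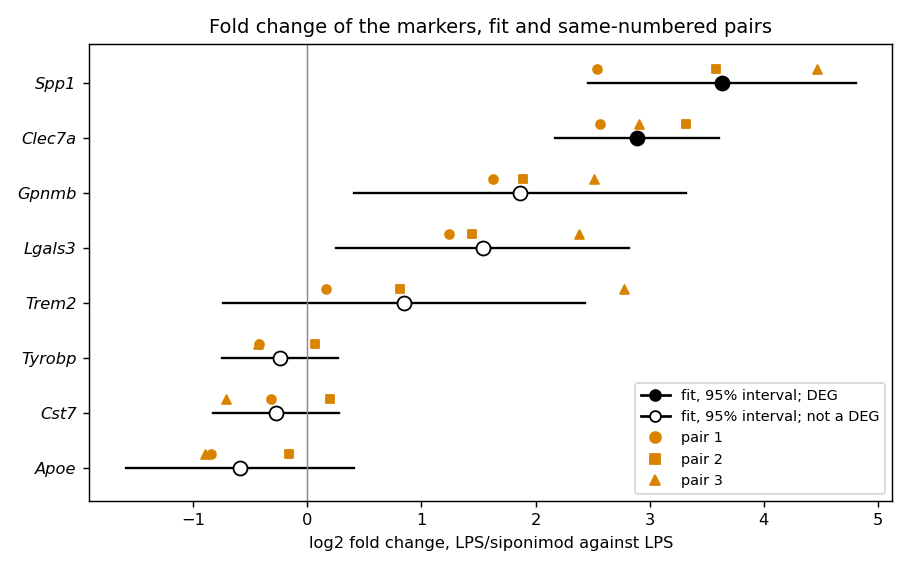
Log2 fold change (FC) of each marker, LPS/siponimod against LPS. Circles with bars are the quasi-likelihood fit and its 95% interval (filled where the gene was a DEG), and orange symbols are differences within the 3 same-numbered pairs. Spp1 (3.63) and Clec7a (2.89) are filled, the intervals of Gpnmb and Lgals3 lie above 0 before adjustment for all genes, and those of Trem2, Tyrobp, Cst7 and Apoe include 0.

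Libraries of 1 group also differed from each other. Trem2, Gpnmb and Lgals3 were highest in replicate 1 of both groups, by 1.38, 1.09 and 1.00 on the log2 scale under LPS and by 0.30, 0.71 and 0.56 under LPS/siponimod. Spp1 was above its group mean by 0.40 in LPS replicate 1 and by 0.83 in LPS/siponimod replicate 3. For Apoe the libraries numbered 3 were the lowest of their groups, at -0.46 and -0.72. Taken as a share of all counts, the 8 markers together made up 3.12, 2.33 and 1.65% of the LPS libraries and 3.97, 4.00 and 4.61% of the LPS/siponimod libraries. Without Apoe these shares were 0.70, 0.38 and 0.296% against 2.55, 2.201 and 3.82%. Most of this was Spp1 and Gpnmb. Spp1 alone made up 0.173, 0.114 and 0.126% against 1.07, 1.402 and 3.02%. Gpnmb made up 0.344, 0.1495 and 0.091% against 1.13, 0.567 and 0.561%. Trem2, Tyrobp, Cst7 and Clec7a each made up at most 0.0545% of any library, so that the summed share does not describe them.

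To place the markers, genes of the routes they belong to were read from the same fit. Over 11 lists with 139 different genes, 133 had a row and 124 were tested, of which 21 were upregulated and 22 downregulated DEGs. This was 34.7% of the tested genes, with 25.3% among all genes. The number depended on single libraries. From 43 DEGs it went to 23 without LPS replicate 1, 10 without LPS replicate 2, 12 without LPS/siponimod replicate 1 and 14 without LPS/siponimod replicate 3, and it was 26 without both libraries numbered 3. DEGs among all genes went from 3036 to 1743, 651, 783, 1035 and 2318 in these fits, in the same order. Further counts after the removal of libraries are given with the lists, and calls of single genes in these lists share this limit. The homeostatic list (4 of 16 called), the cathepsin and cystatin list (3 of 12) and the osteopontin receptors (2 of 8) were close to the share of all genes called, 25.3%, and the lists of lipid efflux (3 of 18), 25-hydroxycholesterol (1 of 7) and metalloproteinases (1 of 9) were below it, so that these counts are not particular to the lists.

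Genes that are raised in disease-associated microglia but are not among the 8 markers went both ways. Of 22 tested, 5 rose, 2 fell and 15 were not DEGs. Among all genes tested 25.3% were DEGs (13.6% higher and 11.7% lower), so that these counts lie near the share of all genes. The median log2 fold change of the list was 0.04 (between -0.03 and 0.32 with single libraries left out). Lilrb4, an inhibitory immunoglobulin-like receptor, had 72.7, 41.7 and 46.97 CPM in the LPS libraries and 596, 486 and 785 CPM under LPS/siponimod (log2 fold change 3.53, SE 0.31, adjusted p = 0.00396, edgeR quasi-likelihood test). Cd9, a tetraspanin, rose by 4.15 and Csf1, the ligand of the CSF1 receptor, by 3.72 on the log2 scale. In contrast, Axl, a receptor for apoptotic cells, fell from 293 ± 121 to 81.8 ± 12.8 CPM (SD, n = 3 each; fitted log2 fold change -1.84, SE 0.32, quasi-likelihood adjusted p = 0.0134), and Lpl, encoding lipoprotein lipase, had a log2 fold change of -1.37 (quasi-likelihood adjusted p = 0.0445). Itgax, another marker of the state, was not a DEG (672 ± 348 against 436 ± 51.3 CPM, quasi-likelihood adjusted p = 0.228). Upregulated and downregulated DEGs were 2 and 0 without LPS replicate 2, 3 and 0 without LPS/siponimod replicate 1 and 3 and 0 without LPS/siponimod replicate 3, while without LPS replicate 1 there were 5 and 1 and without both libraries numbered 3 there were 3 and 2.

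Homeostatic genes are those that the state is known to lower. Of 16 tested, 13 had a log2 fold change under 0, and the median was -0.95, while 48.8% of all genes tested had one above 0. By the quasi-likelihood test 3 fell and 1 rose, and with the replicate number as a block 8 fell and 1 rose, while the block also raised the downregulated DEGs among all genes from 11.7% to 16.4%. With single libraries left out the median lay between -0.55 and -1.09, the former without LPS/siponimod replicate 1. Gpr34, a receptor for lysophosphatidylserine, fell from 20.7, 25.3 and 6.94 CPM to 0.73, 2.89 and 0.32 CPM (log2 fold change -3.74, SE 0.92, adjusted p = 0.0297, edgeR quasi-likelihood test). Cx3cr1, the fractalkine receptor, and the fructose transporter gene Slc2a5 fell as well (log2 fold change -3.65 and -3.57, quasi-likelihood adjusted p = 0.0392 and 0.0477). Both were near the floor under LPS/siponimod. Cx3cr1 had 69, 202 and 35 counts against 3, 21 and 4, and Slc2a5 had 55, 88 and 14 against 1, 12 and 2. With limma-voom Slc2a5 was not a DEG (adjusted p = 0.0568), and without a filter neither gene was one. The size of these changes depended on single libraries. Without LPS/siponimod replicate 2 the log2 fold changes of Gpr34, Cx3cr1 and Slc2a5 were -5.06, -5.01 and -5.205. Without LPS replicate 2 they were -3.39, -2.71 and -3.01. Sall1, a transcription factor of microglial identity, went up (log2 fold change 0.93, quasi-likelihood adjusted p = 0.0433) but was not a DEG with the block (adjusted p = 0.0553). No gene of this list was a DEG without LPS replicate 2, LPS/siponimod replicate 1 or LPS/siponimod replicate 3, and without LPS replicate 1 there was 1 upregulated DEG, which was not Sall1. Of the fits that left out 1 library, Sall1 was a DEG only in that without LPS/siponimod replicate 2. Without LPS replicate 3 there were 7 downregulated DEGs, without LPS/siponimod replicate 2 there were 5, and without both libraries numbered 3 there were 2.

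Among genes of the signalling chain around TREM2/DAP12 and Dectin-1, DEGs were lower. Of 18 genes tested, 10 fell and 8 were not DEGs, while 11.7% of all genes tested were called lower. The median log2 fold change of the list was -0.99. Lat2, an adaptor phosphorylated by SYK, had 70.1, 80.5 and 63.0 CPM in the LPS libraries and 17.2, 27.6 and 16.6 CPM under LPS/siponimod (log2 fold change -1.80, SE 0.23, adjusted p = 0.00733, edgeR quasi-likelihood test). Plcg2, the phospholipase that acts below TREM2, fell from 90.0 ± 21.8 to 46.2 ± 10.9 CPM (SD, n = 3 each; fitted log2 fold change -0.96, quasi-likelihood adjusted p = 0.0306). Inpp5d, which encodes the inhibitory phosphatase SHIP1 of this pathway, fell too (log2 fold change -1.03, quasi-likelihood adjusted p = 0.0225), as did the exchange factor Vav2 (-1.29) and the adaptor Grb2 (-1.07). Syk itself was lower in every LPS/siponimod library than in every LPS library but was not a DEG (log2 fold change -0.97, quasi-likelihood adjusted p = 0.0543). Under the replicate block it was one (-1.02, adjusted p = 0.0131), and over all its alternatives the adjusted p lay between 0.00932 and 0.189. Of the list, 4 genes had a log2 fold change above 0, and none of them was a DEG. Prkcd, Bcl10 and Adam10 (0.39, 0.37 and 0.34) were higher in every LPS/siponimod library than in every LPS library, and Hcst (0.43) overlapped. Adam17 (-0.58) was lower without overlap, while Malt1 and Card9 (-0.05 and -0.25) overlapped. Instead of 10, the downregulated DEGs of the list numbered 2 without LPS replicate 1, 1 without LPS replicate 2, 2 without LPS/siponimod replicate 1 and 1 without LPS/siponimod replicate 3, and 3 without both libraries numbered 3. Of all genes tested, 5.13%, 1.44%, 1.52%, 2.24% and 8.17% were called lower in these fits, in the same order.

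Of 7 other receptors that pair with DAP12 or with related adaptors, 4 were upregulated DEGs, while 13.6% of all genes tested were. The median log2 fold change of the 7 receptors was 2.30. This median was 2.98 without LPS replicate 1, 3.88 with genes of at least 1 CPM only and 1.58 without a filter. Clec4e encodes Mincle, a C-type lectin that binds mycobacterial glycolipid. It had 9, 14 and 34 counts under LPS and 940, 588 and 1359 under LPS/siponimod (log2 fold change 5.44, SE 0.63, adjusted p = 0.00655, edgeR quasi-likelihood test). Trem3, a relative of Trem2, rose from 15.6 ± 10.0 to 77.05 ± 8.33 CPM (SD, n = 3 each; fitted log2 fold change 2.30, quasi-likelihood adjusted p = 0.0162), and Clec5a and Clec4d rose by 6.01 and 6.57. Between 3 and 5 were upregulated DEGs when any single library was left out, and 4 without both libraries numbered 3. Of all genes, between 3.72% and 15.9% were called higher with single libraries left out, and 11.1% without both libraries numbered 3.

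**Figure D4:**
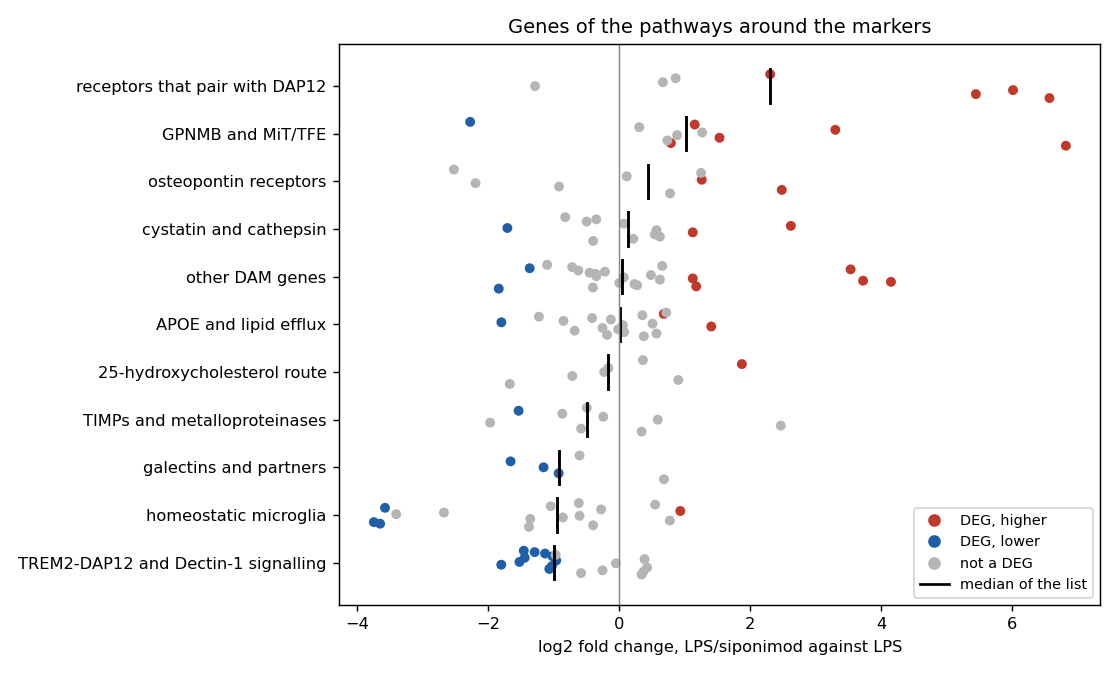
Log2 fold change (FC, LPS/siponimod against LPS) of each tested gene of the 11 lists, with 1 point per gene and a black bar at the median of each list. The receptors that pair with DAP12 or with related adaptors have the highest median (2.30, or between 1.58 and 3.88 under the alternatives). The TREM2-DAP12 and Dectin-1 signalling genes have the lowest (-0.99), close to the homeostatic genes (-0.95). This lowest place changed under some alternatives. Without both libraries numbered 3 the homeostatic genes were lowest (-1.04, with -0.94 for the signalling genes).

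For Gpnmb, the MiT/TFE factors and some of their lysosomal targets were examined. Of 10 genes tested, 5 rose and 1 fell, while 13.6% of all genes tested were called higher and 11.7% lower. The median log2 fold change of the list was 1.02. Mcoln1, a calcium channel of lysosomes, rose from 17.0 ± 2.00 to 49.1 ± 9.27 CPM (SD, n = 3 each; fitted log2 fold change 1.53, SE 0.18, adjusted p = 0.00655, edgeR quasi-likelihood test). Sqstm1, the autophagy receptor p62, rose by 3.30 and Tfeb by 1.15 on the log2 scale. Atp6v0d2, a subunit of the proton pump, had 0, 1 and 0 counts under LPS and 150, 12 and 21 under LPS/siponimod (quasi-likelihood adjusted p = 0.0242). Tfec, another member of the family, fell (log2 fold change -2.27, quasi-likelihood adjusted p = 0.0324), and Mitf was not a DEG (0.88, adjusted p = 0.231), except with the replicate block (1.01, adjusted p = 0.0153). Upregulated DEGs were 2 without LPS replicate 1, LPS replicate 2, LPS/siponimod replicate 1 or LPS/siponimod replicate 3, and 3 without both libraries numbered 3. Of all genes, 8.75%, 3.72%, 4.7%, 6.26% and 11.1% were called higher in these fits, in the same order. Tfec was not a DEG without any single library other than LPS replicate 3.

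Of 12 cathepsins and cystatins around Cst7, 2 rose and 1 fell, near the 25.3% of all genes called. Ctsd, the aspartic protease of lysosomes, rose from 1771 ± 520 to 3857 ± 892 CPM (SD, n = 3 each; fitted log2 fold change 1.12, SE 0.30, adjusted p = 0.0364, edgeR quasi-likelihood test), and Ctsk had 46, 14 and 18 counts against 304, 77 and 189 (quasi-likelihood adjusted p = 0.0349). Ctsh fell (log2 fold change -1.71, quasi-likelihood adjusted p = 0.0179). Ctsl, a cysteine cathepsin that cystatins inhibit, was not a DEG (2112 ± 400 against 2216 ± 492 CPM, log2 fold change 0.07, quasi-likelihood adjusted p = 0.854). No gene of this list was a DEG without LPS replicate 2, LPS/siponimod replicate 1, LPS/siponimod replicate 3 or both libraries numbered 3, and Ctsh alone was left without LPS replicate 3. Without LPS/siponimod replicate 2 there were 2 in each direction, and with the replicate block 3 rose and 2 fell.

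Partners of the secreted markers were examined in the same way. Among receptors of osteopontin, 2 of 8 rose, namely Itgav (log2 fold change 1.26, SE 0.21, adjusted p = 0.012, edgeR quasi-likelihood test) and Itga4 (2.48, SE 0.43, 0.013), both integrin alpha chains. Cd44 was not a DEG (836 ± 743 against 1432 ± 400 CPM, quasi-likelihood adjusted p = 0.377), but rose without LPS replicate 3 (log2 fold change 1.82, adjusted p = 0.0177) and without both libraries numbered 3 (1.602, adjusted p = 0.0389). With the replicate block 3 rose and 3 fell. Without LPS replicate 3 there were 4 upregulated and 1 downregulated DEGs, without LPS/siponimod replicate 2 there were 2 and 2, and 1 upregulated DEG was left without LPS replicate 1, LPS replicate 2 or LPS/siponimod replicate 1. Without both libraries numbered 3 there were 4 upregulated DEGs. Of 5 other galectins and partners of Lgals3, 3 fell, while 11.7% of all genes tested were called lower. Lgals8 fell by 1.15 (SE 0.21, quasi-likelihood adjusted p = 0.0136) and Lgals9 by 1.66 (SE 0.43, quasi-likelihood adjusted p = 0.0347), and Lgals3bp, a glycoprotein that galectin-3 binds, had a log2 fold change of -0.92 (quasi-likelihood adjusted p = 0.0303). Of these 3 DEGs, 1 was left without LPS replicate 1 or LPS/siponimod replicate 3 and none without LPS replicate 2 or LPS/siponimod replicate 1, and 1 gene of the list fell without both libraries numbered 3. In these fits 5.13%, 2.24%, 1.44%, 1.52% and 8.17% of all genes were called lower, in the same order. For Apoe, genes of lipid efflux and its control were mixed, with 2 of 18 higher and 1 lower. The cholesterol transporter gene Npc1 rose (log2 fold change 1.41, SE 0.18, quasi-likelihood adjusted p = 0.00733) as did Srebf2, a regulator of cholesterol synthesis (0.68, 0.0368). Nr1h3, a liver X receptor that induces Apoe, fell from 79.4 ± 28.2 to 22.8 ± 7.23 CPM (SD, n = 3 each). Its fitted log2 fold change was -1.80 (quasi-likelihood adjusted p = 0.0155). Nr1h2, the other liver X receptor, was higher in every LPS/siponimod library than in every LPS library. With a log2 fold change of 0.51 (quasi-likelihood adjusted p = 0.0422), Nr1h2 was under 1.5-fold and not a DEG. The liver X receptor targets Abca1 and Abcg1 were not DEGs (log2 fold change 0.38 and -0.19, quasi-likelihood adjusted p = 0.431 and 0.737). Under the replicate block 2 rose and 4 fell, without LPS replicate 3 there were 3 upregulated and 3 downregulated DEGs, and without LPS replicate 2 or LPS/siponimod replicate 1 a single upregulated DEG was left. Without LPS/siponimod replicate 2 the numbers were 1 and 3, and without LPS/siponimod replicate 3 or both libraries numbered 3 they were 1 and 1.

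Ch25h makes 25-hydroxycholesterol, and its list held 1 upregulated DEG among 7 genes, Insig1 (log2 fold change 1.87, SE 0.36, adjusted p = 0.0164, edgeR quasi-likelihood test), which retains sterol sensors in the endoplasmic reticulum. Ch25h had 201, 158 and 865 CPM in the LPS libraries and 108, 145 and 132 CPM under LPS/siponimod, so that the groups did not overlap but LPS replicate 3 set most of the difference (log2 fold change -1.67, quasi-likelihood adjusted p = 0.106). It was a DEG with DESeq2 (adjusted p = 0.0237) and the likelihood ratio test. Within pairs it differed by -0.89, -0.13 and -2.71 on the log2 scale. Insig1 was not a DEG without LPS replicate 2, LPS/siponimod replicate 1, LPS/siponimod replicate 3 or both libraries numbered 3. Among tissue inhibitors of metalloproteinases and their targets, 1 of 9 was a DEG. This was the membrane inhibitor Reck, which fell (log2 fold change -1.53, SE 0.40, quasi-likelihood adjusted p = 0.0349) and was not a DEG in any of the fits that left out 1 library, while Timp1 was not a DEG (27.0 ± 10.9 against 19.1 ± 3.94 CPM, quasi-likelihood adjusted p = 0.269).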

How the data were processed

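Single-end reads were trimmed and aligned by the authors to mRatBN7.2 in the CLC Genomics Workbench, and they deposited total read counts per gene, without normalization, for each library. How reads that match several genes, strand and introns were handled is not given in the sources used here. A row without a name in 1 table was left out. The R package edgeR (4.0.16, under R 4.3.3) filtered genes (filterByExpr, minimum count 10, minimum total 15), scaled libraries (TMM) and tested the condition by quasi-likelihood, with Benjamini-Hochberg adjustment over 11977 genes. Standard errors are the log2 fold change divided by the square root of the F statistic, and 95% intervals use the residual and prior degrees of freedom. Pair differences are log2 CPM with a prior count of 2. Single-gene exact permutation tests cannot go below p = 0.1 with 3 against 3 libraries.

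The replicate numbers are shared by both groups. After centring on the group means, same-numbered libraries correlated over genes at 0.42, 0.545 and 0.611 and others between -0.534 and 0.0856, so that the numbers were taken as pairs, on this evidence alone. Centring makes the deviations within a group cancel out, so that positive values for same numbers bring lower ones for other numbers. The replicate block rests on these pairs, which no label states. Alternatives were RLE normalization, DESeq2 (version 1.42.0), limma-voom (version 3.58.1), edgeR's likelihood ratio test, other filters, the replicate block and each library left out. Leaving out both libraries numbered 3 was added after the data were seen. The markers and lists were chosen with earlier results of these data known. Named are all markers with a row and, of each list, up to 3 genes per direction with the smallest adjusted p. Itgax, Syk, Plcg2, Inpp5d, Mitf, Ctsl, Cd44, Abca1, Abcg1, Timp1 and other genes outside this rule were named for their role after their values were seen. The procedure was tested on simulated counts.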

Additional observations from a re-analysis of the deposited data

How the results depend on the processing

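Spp1 and Clec7a were upregulated DEGs under all 14 alternatives, and Trem2, Tyrobp, Apoe and Cst7 under none, with the sign of all 8 log2 fold changes unchanged. The number of upregulated markers was 4 with DESeq2, 4 with the likelihood ratio test and 4 with the replicate block, Gpnmb and Lgals3 being added, while the share of all genes went from 13.6% to 16.5%, 15.3% and 17.7%. It was 3 with limma-voom, which added Gpnmb (adjusted p = 0.0468) but not Lgals3 (adjusted p = 0.0584), and ranged from 2 to 4 with single libraries left out. No marker was a downregulated DEG under any alternative. DEGs among all genes ranged from 651 to 3713 with single libraries left out and were 4074 with the replicate block, which also raised the genes of the pathway lists called from 43 to 64. These ranged from 10 to 52 with single libraries left out and were 26 without both libraries numbered 3. Beyond the calls given with the results, the block changed no call of a marker. Of the genes named from the lists, Ctsl (log2 fold change between -0.083 and 0.24) and Abcg1 (between -0.47 and 0.12) changed sign with single libraries left out. Fits without 1 library compare 2 with 3 libraries, and the fit without both libraries numbered 3 compares 2 with 2. Depth did not limit the markers, the lowest count of which was 223 (Clec7a).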
